A study of Rattus norvegicus with 12 samples.

Results

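The cluster of miR-351, miR-542-5p and miR-450a is a run of microRNA (miR) genes on rat chromosome X, and 4 of the 154 miR assays measured in dorsal root ganglia (DRG) after spared nerve injury (SNI) belong to it. The 4 assays were chosen by name, as neighbouring genes, from a table of Ct values that holds only miRs read on every array, and they are rno-miR-351, mmu-miR-351, rno-miR-450a and mmu-miR-542-5p. The prefix rno or mmu says for which species, rat or mouse, the assay was designed. All RNA was from adult male Sprague-Dawley rats, so miR-351 was read in each RNA by both a rat and a mouse assay. The choice was made with results of the same arrays in view, and the values themselves set no threshold for a member.

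The 12 arrays were 4 Sham, 4 Sural-SNI and 4 Tibial-SNI DRG taken at Day 23, with 2 L3-DRG and 2 L4-DRG in each group, numbered 1 and 2. In Sural-SNI the common peroneal and tibial branches of the sciatic nerve were tied and cut and the sural branch was spared. In Tibial-SNI the common peroneal and sural branches were tied and cut and the tibial branch was spared. In Sham rats the nerve was exposed and left intact. The paper traced injured neurons from the cut branches, in DRG collected later than Day 23. It found them in L4-DRG and none in L3-DRG, where it places the neurons of the uninjured saphenous nerve. Their proportion was larger after Sural-SNI than after Tibial-SNI. Each array held the RNA of 1 ganglion, and the labels do not say which arrays came from the same rat. Here n counts arrays, and the main fits and exact tests treat them as independent, although some may share a rat. The spread between arrays may also in part be technical.

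miRs are short RNAs cut from hairpin precursors that lower the translation and stability of mRNAs, and they recognise their targets mainly through the seed, bases 2 to 8 of the mature strand. Neighbouring miR hairpins are often transcribed as 1 precursor RNA. The X-linked cluster, which also holds miR-322 (the rodent counterpart of human miR-424) and miR-503, is known for its part in cell cycle exit and muscle differentiation. DRG hold the cell bodies of sensory neurons, wrapped by satellite glia, together with Schwann cells, vessels and immune cells. A whole ganglion was measured, so fewer cells of a type and less RNA per cell cannot be told apart.

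The mature rat strands are shown because they tell which members could act on the same targets and which could share an assay. The seeds are in capitals, and the sequences are those of RefSeq for the GRCr8 assembly. The first strand lies at chrX:137725157-137725181 on the minus strand, and it is followed by the strands of the same table that share its seed.
rno-miR-351-5p: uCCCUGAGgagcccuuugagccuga
rno-miR-125a-5p: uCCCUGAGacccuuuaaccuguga
rno-miR-125b-5p: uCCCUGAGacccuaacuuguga
The miR-450 strands are given next, miR-450a at chrX:137720985-137721006 and miR-450b at chrX:137721119-137721139, both on the minus strand.
rno-miR-450a-5p: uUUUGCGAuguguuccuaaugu
rno-miR-450b-5p: uUUUGCGAuguguuccuaaua
The miR-542 strand lies at chrX:137722223-137722244 on the minus strand.
rno-miR-542-5p: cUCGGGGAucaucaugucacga

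The 3 miRs of the cluster had 3 different seeds. The miR-351 seed was found in 3 of the 694 mature rat miRs of the RefSeq table, the other 2 being miR-125a-5p and miR-125b-5p, and these share the first 8 bases with miR-351 and differ after them. The miR-450a seed was found in 2 of the 694, miR-450a and miR-450b, which are identical over their first 20 bases. The miR-542-5p seed was found in 1 of the 694. The names of the miR-351 and miR-450a assays carry no arm, so that the 5p strand is shown without the table saying that it was the strand read, and the mouse sequences were not used here.

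The RefSeq annotation of GRCr8 placed 6 hairpins within 5309 bp, all on the minus strand. In the direction of transcription they are Mir322, Mir503, Mir351, Mir542, Mir450b-1 and Mir450a1. Mir351 (chrX:137725116-137725196) and Mir542 (chrX:137722176-137722254) are 2861 bp apart, whereas Mir450a1 (chrX:137720933-137721023) lies 1 hairpin further on, 54 bp past Mir450b-1. The hairpins of Mir322, Mir503 and Mir351 lie within the span of a long non-coding RNA gene, LOC102550366, and the hairpins of Mir542, Mir450b-1 and Mir450a1 lie outside it. Hprt1 and Plac1 are the nearest genes on the sides of the cluster. Among the 154 miRs no assay was named for miR-322 (or miR-424), miR-503, miR-450b or miR-542-3p, so their levels could not be analysed.

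**Figure D1:**
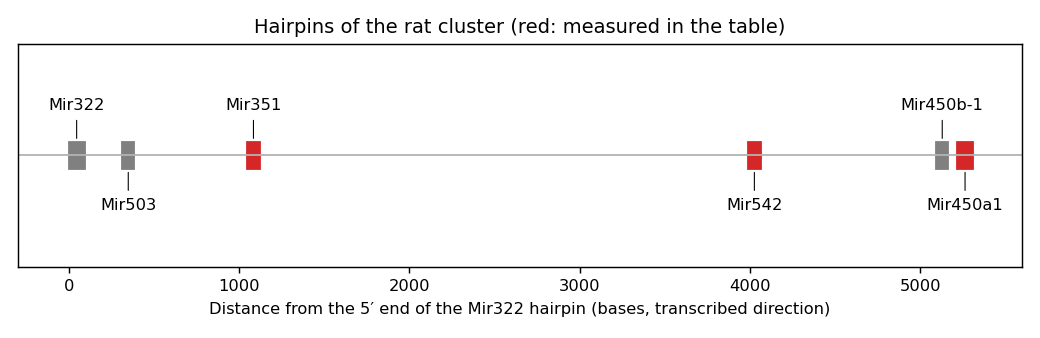
Map of the 6 hairpins of the rat cluster, with the distance in bases from the 5′ end of Mir322 on the x axis. The 3 hairpins measured in the table (red) are spread from Mir351 to Mir450a1, and Mir322, Mir503 and Mir450b-1 (gray) lie between or before them.

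The members were among the weaker signals of the ganglia. Ct is the PCR cycle at which the product crosses the threshold, so that a lower Ct means more RNA and 1 cycle is about a doubling. The mean Ct over the 12 arrays was 30.4 for rno-miR-351, 30.8 for mmu-miR-351, 31.1 for rno-miR-450a and 32.7 for mmu-miR-542-5p. When the 154 miRs were ordered from the lowest mean Ct to the highest, these were at places 102, 113, 121 and 147. The highest single Ct of a member was 35.4, of mmu-miR-542-5p, in Tibial-SNI L4-DRG number 1. This was the 1 member with a Ct above 35. Assays differ in efficiency, so these places are not an order of molecule numbers. Members of the same seed gave stronger signals, with mean Ct of 24.8 for miR-125a-5p and 24.7 for miR-125b-5p.

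The arrays numbered 1 and 2 stood apart before any injury was considered. Over the 154 miRs the median difference of mean Ct, number 1 minus number 2, was 2.05 cycles, and 148 miRs had a higher Ct in number 1. For the members the difference was 0.547 for rno-miR-351, 1.97 for mmu-miR-351, 2.64 for rno-miR-450a and 1.69 for mmu-miR-542-5p. The small difference of rno-miR-351 was at place 22 of 154, counted from the lowest. The 3 reference RNAs did not move together, with −0.861 for MammU6, 3.94 for snoRNA135 and 1.52 for U87. Levels are therefore given as −ΔCt, the mean Ct of the 3 references minus the Ct of the miR (log2 scale, higher is more RNA). For log2(fold change), each injury array is set against the Sham array of its own DRG level and number. The main fits of injury against Sham hold the DRG level but not the number. Any offset between the numbers left in −ΔCt therefore stays in the spread of those fits.

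Array Tibial-SNI L4-DRG number 1 also differed from the rest in other RNAs. The mean −ΔCt of the 4 skeletal muscle assays (miR-1 by both its assays, miR-133a and miR-133b) was −0.06 there and between −3.73 and −2.11 in the other 11 arrays. The glial miR-338-3p was at −10.3 there, against −7.57 to −2.97 in the others. The neuronal assays present, miR-182, miR-183 and miR-9, are 3 of the 5 neuronal markers listed, and their mean −ΔCt moved with the groups. In L3-DRG it was −0.674 and −0.719 in Sham, −0.249 and −0.251 after Sural-SNI and −0.022 and −0.517 after Tibial-SNI, so that every injury array lay above Sham. In L4-DRG it was −0.48 and −0.208 in Sham, −0.865 and −0.965 after Sural-SNI and −0.964 and −0.828 after Tibial-SNI, so that every injury array lay below Sham. Of the leukocyte list 4 of 5 were present, and their mean was −3.77 to −1.74 in Sham arrays, −2.90 to −1.46 after Sural-SNI and −2.69 to −1.80 after Tibial-SNI. Smooth muscle miRs (miR-143 and miR-145) were at −3.21 to −1.58, −3.45 to −1.12 and −2.21 to −0.738 in the same order of groups, and endothelial miR-126 (both arms) at −1.48 to 0.861, −1.19 to 0.861 and −0.64 to 1.06. None of the 2 red blood cell miRs listed was in the table. These ranges pool both numbers. Against the Sham array of the same level and number, the leukocyte mean was higher in every injury array except Tibial-SNI L4-DRG number 2. The smooth muscle mean was higher in every Tibial-SNI array, and in Sural-SNI only in L4-DRG number 2. Over all 154 miRs the median log2(fold change) after Sural-SNI and Tibial-SNI was 0.328 and 0.470 in L3-DRG, and −0.045 and −0.003 in L4-DRG. The part of other cells in the values of the members was not tested, and results that rest on that array are given with and without it.

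The rat and the mouse assay of miR-351 gave about the same mean Ct but moved apart with the array number. In number 1 the rat and mouse Ct were 30.95 and 32.60 in Sham L3-DRG and 30.45 and 30.30 in Sham L4-DRG. In number 2 they were 30.62 and 30.78 in Sham L3-DRG and 30.45 and 30.29 in Sham L4-DRG. Among the Sham arrays the rat minus mouse Ct was thus −1.65 in L3-DRG number 1 and between −0.153 and 0.155 in the other 3.

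In the Sural-SNI arrays the rat minus mouse Ct was −1.45 in L3-DRG number 1, 0.28 in L3-DRG number 2, −0.45 in L4-DRG number 1 and 0.66 in L4-DRG number 2. In the Tibial-SNI arrays it was −1.92, 0.84, −1.12 and 0.32 in the same order. In both injury groups the rat assay was the earlier one in number 1 and the mouse assay in number 2.

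Over the 12 arrays the difference was −0.362 ± 0.944 cycles (SD, n = 12), with p = 0.213 in an exact two-sided sign-flip permutation test. In number 1 it was −1.07 ± 0.786 (SD, n = 6) and negative in 5 of 6 arrays, and in number 2 it was 0.35 ± 0.356 (SD, n = 6) and positive in 5 of 6 arrays. Between the numbers the difference of the assays moved by −1.42 cycles, with p = 0.0043 in an exact permutation test of 6 arrays against 6, whose smallest p is 0.0022. This last test was chosen after the values were seen. Both assays were read in the same RNA, so the reference RNAs do not enter this difference. Number 1 had the higher Ct in general, by the median of 2.05 cycles above, and the part of RNA amount or assay efficiency was not tested.

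The difference of the assays was not called between injury groups. It changed by 0.133 cycles from Sham to Sural-SNI, by −0.098 from Sham to Tibial-SNI and by −0.231 from Sural-SNI to Tibial-SNI, and the exact permutation p adjusted over these 3 comparisons was 0.914 for each. The groups overlapped in all 3 comparisons. For miR-1, the other miR with an assay for each species in the table, the mean rat minus mouse Ct was −3.69 cycles in number 1 and −2.62 in number 2. It moved by −1.07 between the numbers, in the same direction as that of miR-351. Single assays differed widely in their Ct in number 1 minus number 2. Over all miRs this ran from −2.67 to 6.30, with a median of 2.05. Over the assays with a rat name it ran from 0.066 to 3.79, and so lay on either side of that median. A part of the species of the assay was not tested.

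**Figure D2:**
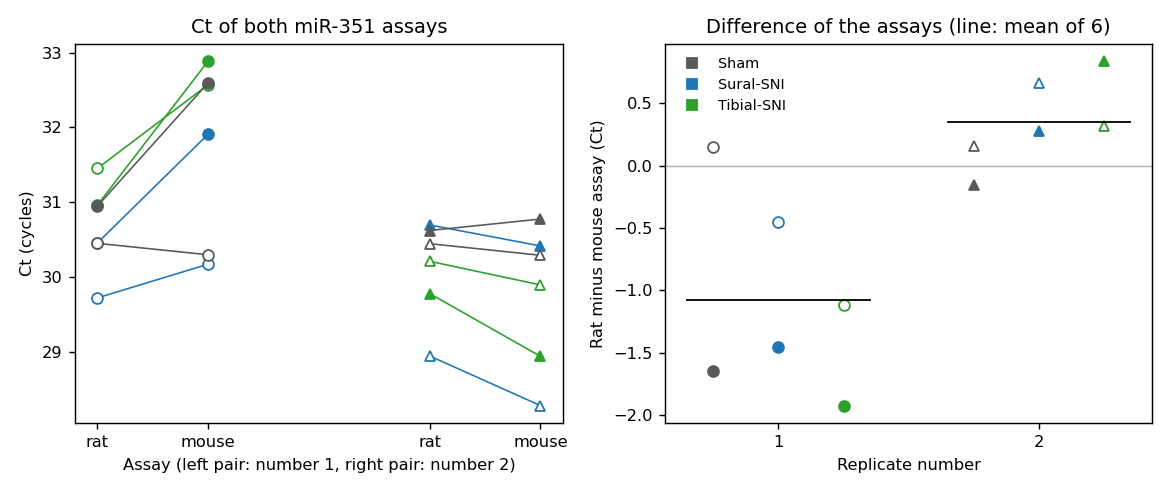
Left, Ct in cycles of the rat and the mouse miR-351 assay, with a line for each array. Right, the rat Ct minus the mouse Ct by replicate number, with a line at the mean of 6 arrays. Filled symbols are L3-DRG and open symbols L4-DRG, circles are number 1 and triangles number 2. The mean is −1.07 in number 1 and 0.35 in number 2, while the colours of the injury groups are mixed.

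In Sham, −ΔCt of rno-miR-351 was −4.74 and −5.81 in L3-DRG numbers 1 and 2, and −5.12 and −6.31 in L4-DRG numbers 1 and 2. In Sural-SNI it was −4.58 and −6.00 in L3-DRG, and −4.83 and −5.04 in L4-DRG. In Tibial-SNI it was −4.10 and −5.57 in L3-DRG, and −5.03 and −5.57 in L4-DRG. Number 1 was the higher array of every pair, and the 3 groups overlapped, with means of −5.49 ± 0.703, −5.11 ± 0.622 and −5.07 ± 0.695 (SD, n = 4 each).

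For mmu-miR-351 the Sham values were −6.38 and −5.97 in L3-DRG numbers 1 and 2, and −4.97 and −6.15 in L4-DRG. In Sural-SNI they were −6.04 and −5.72 in L3-DRG, and −5.28 and −4.37 in L4-DRG. In Tibial-SNI they were −6.02 and −4.73 in L3-DRG, and −6.14 and −5.25 in L4-DRG. The highest level of this assay was thus in Sural-SNI L4-DRG number 2, and the lowest in Sham L3-DRG number 1.

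For rno-miR-450a the Sham values were −6.44 and −5.58 in L3-DRG numbers 1 and 2, and −6.53 and −5.88 in L4-DRG. In Sural-SNI they were −5.83 and −5.32 in L3-DRG, and −6.86 and −4.81 in L4-DRG. In Tibial-SNI they were −5.64 and −4.76 in L3-DRG, and −7.45 and −5.79 in L4-DRG. Here number 2 was the higher array of every pair, the opposite order to rno-miR-351.

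mmu-miR-542-5p reads the strand named 5p of the hairpin between miR-351 and miR-450a, and its Sham values were −7.76 and −7.71 in L3-DRG numbers 1 and 2, and −6.85 and −7.58 in L4-DRG. In Sural-SNI they were −8.31 and −8.32 in L3-DRG, and −7.27 and −6.49 in L4-DRG. In Tibial-SNI they were −6.59 and −7.22 in L3-DRG, and −8.96 and −7.48 in L4-DRG. Sural-SNI lay below Tibial-SNI in L3-DRG and above it in L4-DRG, with no overlap at either level.

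**Figure D3:**
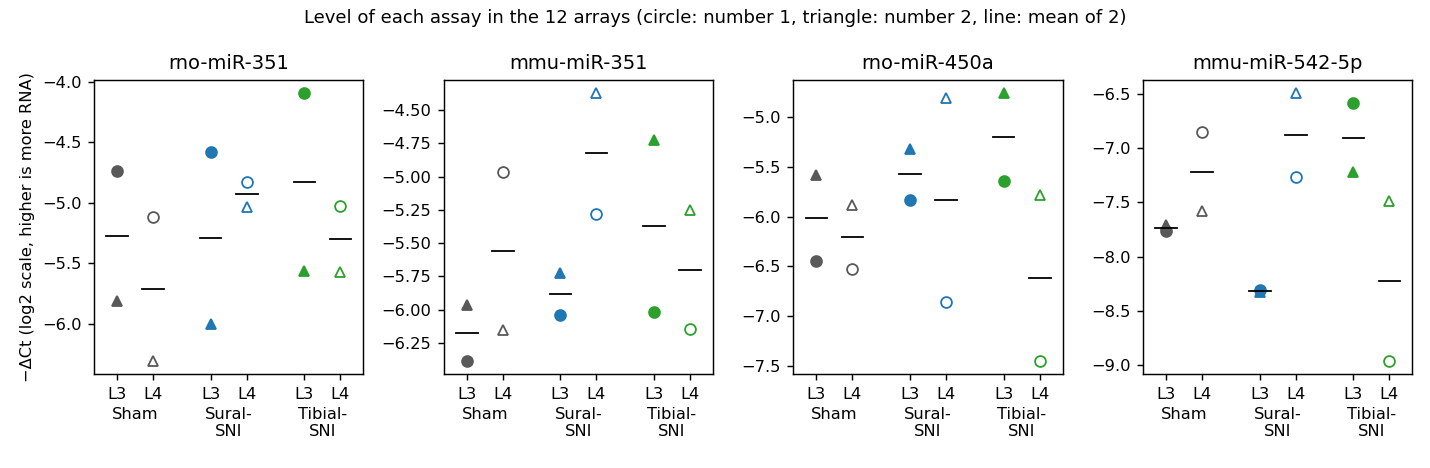
−ΔCt (log2 scale) of the 4 assays in the 12 arrays, each panel with its own y axis. Gray is Sham, blue Sural-SNI and green Tibial-SNI, filled symbols are L3-DRG and open symbols L4-DRG, circles are number 1 and triangles number 2, and lines are means of 2 arrays. The widest pair is rno-miR-450a in Sural-SNI L4-DRG, at −6.86 and −4.81, and the order of the pairs of mmu-miR-542-5p turns between L3 and L4.

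No member was called after Sural-SNI against Sham when both DRG levels were pooled. The difference from Sham in −ΔCt was 0.38 (SE 0.49) for rno-miR-351, 0.51 (SE 0.47) for mmu-miR-351, 0.40 (SE 0.56) for rno-miR-450a and −0.12 (SE 0.57) for mmu-miR-542-5p. The adjusted p of limma over the 154 miRs was 0.9997 for all 4, and 0% of the 154 miRs were called. 95% confidence intervals were wide, from −0.52 to 1.55 for mmu-miR-351. Within number 1 the values were 0.22, 0.02, 0.14 and −0.48, and within number 2 they were 0.54, 1.01, 0.67 and 0.24. Without array Sural-SNI L4-DRG number 2, an unpaired fit gave 0.32, 0.23, −0.05 and −0.50, and in such a fit the offset between the numbers is no longer balanced.

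After Tibial-SNI the differences from Sham were 0.43 for rno-miR-351, 0.33 for mmu-miR-351, 0.20 for rno-miR-450a and −0.09 for mmu-miR-542-5p, with adjusted p = 0.997 for each and again 0% of the 154 miRs called. rno-miR-351 lay above its Sham array in all 4 Tibial-SNI arrays, by 0.64, 0.24, 0.09 and 0.74, as did 18.2% of the 154 miRs. The 0.43 became 0.10 in the unpaired fit without array Tibial-SNI L3-DRG number 1, 0.16 without Sham L4-DRG number 2 and 0.68 without Sham L3-DRG number 1, and it was 0.19 with the mean of all miRs as reference. Within numbers 1 and 2 it was 0.37 and 0.49. In Sural-SNI its log2(fold change) was 0.15, −0.19, 0.29 and 1.27, so that the sign was not shared there. Both injury groups were set against the same 4 Sham arrays.

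Between Tibial-SNI and Sural-SNI, the log2(fold change) differed by 0.05 (SE 0.37) for rno-miR-351, −0.18 (SE 0.62) for mmu-miR-351, −0.21 (SE 0.48) for rno-miR-450a and 0.03 (SE 0.72) for mmu-miR-542-5p. The adjusted p was 0.995 for each member, and 1 miR outside the cluster, miR-325 (−1.49, adjusted p = 0.034), was called, which is 0.649% of the 154. Between the DRG levels, L4 minus L3 over all groups was −0.18, 0.45, −0.62 and 0.21 for the members in the same order, with adjusted p = 0.987 and 0% called.

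In L3-DRG, Tibial-SNI was above Sham for all 4 assays in both arrays. The log2(fold change) in numbers 1 and 2 was 0.64 and 0.24 for rno-miR-351, 0.36 and 1.24 for mmu-miR-351, 0.80 and 0.82 for rno-miR-450a, and 1.18 and 0.49 for mmu-miR-542-5p. The median of the 4 means was 0.805, while the median over all 154 miRs was 0.470. By the mean of the 2 arrays, all 4 members and 128 of the 154 miRs were above 0. How many of the 154 were above Sham in both arrays was not counted. None of the 4 passed the test, and 0% of the 154 miRs were called. The neuronal, glial, leukocyte, smooth muscle and endothelial means also lay above the Sham array of the same number in both of these arrays. The skeletal muscle mean did so in number 1 only. The part of these cells was not tested.

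Sural-SNI in L3-DRG gave smaller values of both signs. They were 0.15 and −0.19 for rno-miR-351, 0.35 and 0.24 for mmu-miR-351, 0.61 and 0.27 for rno-miR-450a, and −0.55 and −0.61 for mmu-miR-542-5p. miR-542-5p was the only member below Sham in both arrays. The median of the members was 0.138 and that of all 154 miRs 0.328, and 0% were called.

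In L4-DRG the 2 arrays of an injury group differed by more than in L3-DRG, for every member. In Sural-SNI numbers 1 and 2 the values were 0.29 and 1.27 for rno-miR-351, −0.31 and 1.78 for mmu-miR-351, −0.33 and 1.07 for rno-miR-450a, and −0.41 and 1.08 for mmu-miR-542-5p. All 4 were high in number 2, and 3 of the 4 were below Sham in number 1. The median of the members was 0.552, against −0.045 over all 154 miRs, and 0% were called.

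In Tibial-SNI L4-DRG numbers 1 and 2 the values were 0.09 and 0.74 for rno-miR-351, −1.18 and 0.90 for mmu-miR-351, −0.92 and 0.10 for rno-miR-450a, and −2.11 and 0.09 for mmu-miR-542-5p. The 3 low values were all in number 1, the array with the high skeletal muscle and low miR-338-3p signals. The means over both arrays were 0.42, −0.14, −0.41 and −1.01, and 0% of the 154 miRs were called. Without that array the paired values are those of number 2 alone. An unpaired fit of number 2 against both Sham arrays gave 0.14, 0.31, 0.42 and −0.27, with the remaining array assumed to vary like the other groups. The neuronal markers lay below Sham in all injury arrays of L4-DRG, and their part was not tested.

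The difference between the DRG levels was tested itself. For Tibial-SNI against Sham, L4 minus L3 was −0.03 for rno-miR-351, −0.94 for mmu-miR-351, −1.22 for rno-miR-450a and −1.84 (SE 0.85) for mmu-miR-542-5p, with adjusted p = 0.9998 and a median of −0.47 over all 154 miRs. For Sural-SNI against Sham it was 0.80, 0.44, −0.07 and 0.91, with adjusted p = 0.9991 and a median of −0.35. In both tests 0% of the 154 miRs were called. Within numbers 1 and 2 the Tibial-SNI values were −0.55 and 0.50 for rno-miR-351, −1.54 and −0.34 for mmu-miR-351, −1.72 and −0.73 for rno-miR-450a, and −3.28 and −0.39 for mmu-miR-542-5p. The value was thus lower in number 1 for every member. Without array Tibial-SNI L4-DRG number 1, an unpaired fit gave −0.30, −0.49, −0.39 and −1.10. The 0.80 of rno-miR-351 in Sural-SNI was 0.14 within number 1 and 1.46 within number 2, and in unpaired fits it became 0.09 without array Sural-SNI L3-DRG number 2, 0.21 without Sham L4-DRG number 2, 0.26 without Sham L3-DRG number 1 and 1.51 without Sural-SNI L3-DRG number 1.

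mmu-miR-542-5p had the largest turn between the levels among the members. Tibial-SNI minus Sural-SNI was 1.41 in L3-DRG and −1.34 in L4-DRG, so that L4 minus L3 was −2.75 (SE 0.85, 95% confidence interval −4.70 to −0.81). It was −3.41 within number 1 and −2.09 within number 2. This comparison was added after the values were seen. The adjusted p of limma over the 154 miRs was 0.996 and 0% were called, and the exact permutation p within the DRG levels was 0.0556, which is the smallest that 2 arrays against 2 at each level can give. Groups without overlap, in opposite order at the 2 levels, always give this smallest p. As the comparison was picked for that order, this p is no further support. Tibial-SNI was above Sural-SNI without overlap in L3-DRG and below it without overlap in L4-DRG for 2 of the 154 miRs, 1.3%, the other being miR-200c (0.21 in L3-DRG and −0.76 in L4-DRG). This pattern was taken from the values of miR-542-5p, and the opposite turn was not counted. The share of miRs that would have it by chance was not tested, so the 1.3% does not mark it as rare. Without array Tibial-SNI L4-DRG number 1 the value of the unpaired fit was −2.01 (95% confidence interval −3.90 to −0.13).

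The same contrast was −0.83 for rno-miR-351, −1.38 for mmu-miR-351 and −1.16 for rno-miR-450a, against a median of −0.02 over all 154 miRs. These 3 had the direction of miR-542-5p in number 1 and in number 2, with values from −1.87 to −0.685, but none passed the test, the adjusted p being 0.996 for each. How many of the 154 miRs were below 0 in both numbers was not counted. The members were read on the same arrays, 2 of them as assays of 1 miR, so their directions are not independent. For rno-miR-450a it was −0.78 within number 1 and −1.54 within number 2. Unpaired fits gave −0.13 for it without array Sural-SNI L4-DRG number 2 and −0.33 without array Tibial-SNI L4-DRG number 1.

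**Figure D4:**
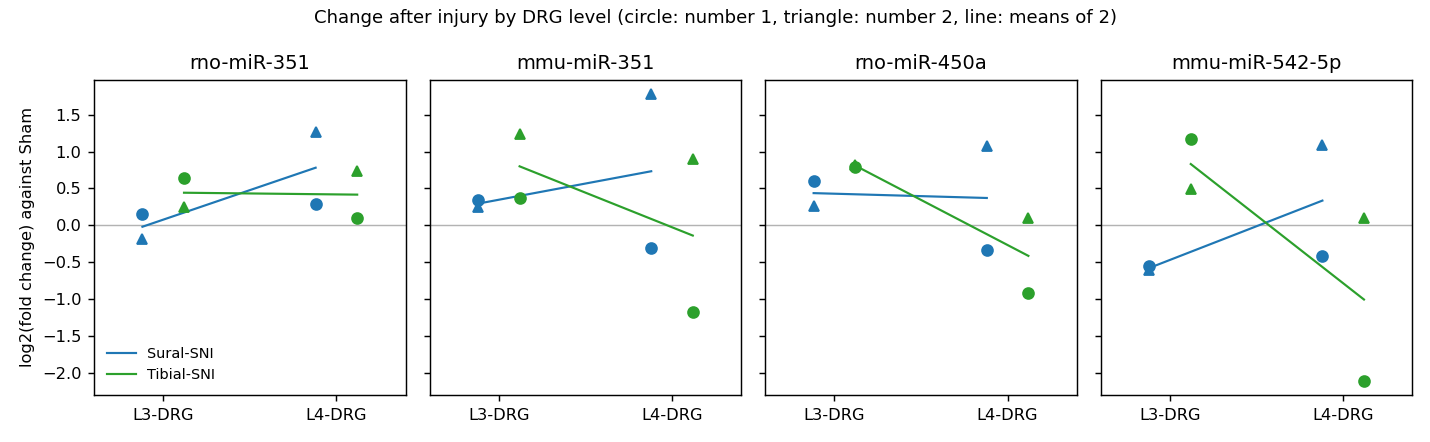
log2(fold change) of each injury array against the Sham array of its DRG level and number, for the 4 assays in L3-DRG and L4-DRG. Circles are number 1, triangles number 2, and lines join the means of 2 arrays (blue Sural-SNI, green Tibial-SNI). The lines of mmu-miR-542-5p cross, that of Sural-SNI going from −0.58 to 0.34 and that of Tibial-SNI from 0.83 to −1.01.

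The members had similar profiles over the sets of 3 arrays of 1 DRG level and number, with exceptions in single sets. When the mean of each such set was subtracted from −ΔCt, Pearson r over the 12 arrays was 0.91 between mmu-miR-351 and rno-miR-450a, 0.743 between rno-miR-450a and mmu-miR-542-5p, and 0.739 between the 2 assays of miR-351. The 6 pairs of members had a median r of 0.718 and a range of 0.559 to 0.91, while the median over all 11781 pairs of miRs was 0.175. These values describe arrays that share references and RNA input, and 4 means were removed from the 12 values. Without that step the median of the 6 pairs was 0.333, r was −0.072 between the 2 assays of miR-351, and rno-miR-351 had r = −0.279 with rno-miR-450a.

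By this measure 6 of the 12 places nearest to a member were taken by another member. For each member, 3 of the 153 other miRs were members. Some pairs entered this count from each side. These were mmu-miR-351 with rno-miR-450a, and the rat with the mouse assay of miR-351, which read the same miR. How many places would be shared by chance was not tested. For rno-miR-351 the 3 nearest of the 153 other miRs were mmu-miR-351, rno-miR-450a and miR-222 (r = 0.669), a miR known to rise in injured neurons. For mmu-miR-351 they were rno-miR-450a, miR-130b (r = 0.75) and rno-miR-351. For rno-miR-450a they were miR-130b (r = 0.914), mmu-miR-351 and miR-708 (r = 0.807). mmu-miR-542-5p was nearest to miR-20a (r = 0.823) and miR-15b (r = 0.78), which belong to families known for control of the cell cycle, and then to rno-miR-450a. This order changed without the 3 arrays of L4-DRG number 1, which include the array with the high skeletal muscle signal. The nearest to mmu-miR-542-5p were then miR-145 (r = 0.945) and miR-143 (r = 0.912). rno-miR-450a was at place 17 (r = 0.65), mmu-miR-351 at place 22 (r = 0.581) and rno-miR-351 at place 6 (r = 0.775).

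miR-542-5p was at place 9 of 153 for rno-miR-351 and at place 4 for both mmu-miR-351 and rno-miR-450a. The order depended on which arrays were used. When the 3 arrays of a DRG level and number were left out in turn, the median r of the 6 pairs ranged from 0.638, without L4-DRG number 2, to 0.794, without L3-DRG number 1. Without L4-DRG number 2, mmu-miR-351 and rno-miR-450a still had r = 0.925, but no member was among the 3 nearest to rno-miR-351. The 2 assays of miR-351 then had r = 0.406, the mouse assay being at place 60 of 153 for the rat assay and the rat assay at place 46 for the mouse assay. Without 1 of the other sets their r was 0.755 to 0.862, and with other references it was 0.729 to 0.78.

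**Figure D5:**
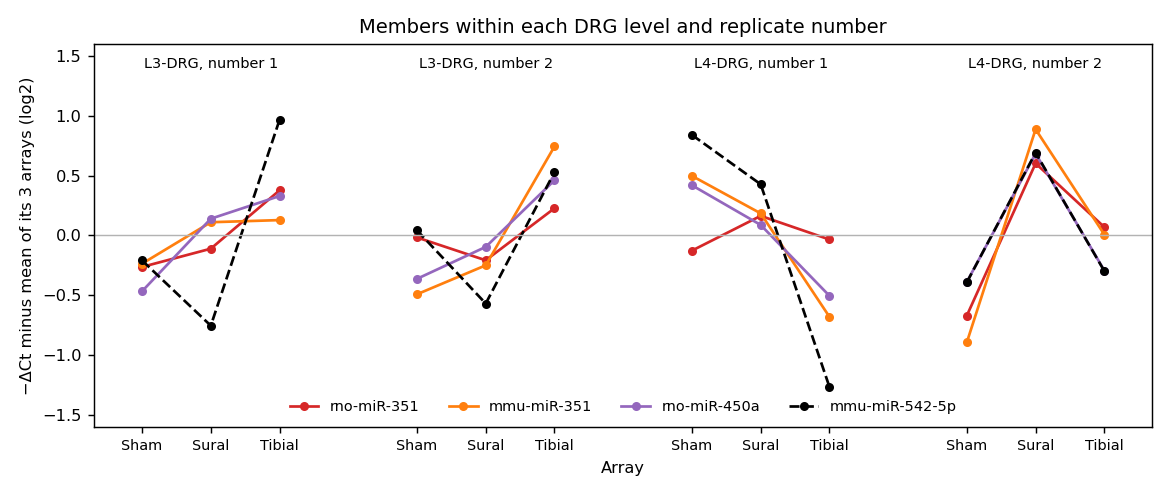
−ΔCt of the 4 assays after the mean of the 3 arrays of the same DRG level and number was subtracted (log2 scale), in the order Sham, Sural-SNI and Tibial-SNI. The 4 lines rise to Tibial-SNI in L3-DRG and peak at Sural-SNI in L4-DRG number 2, where rno-miR-450a is hidden behind mmu-miR-542-5p (dashed), and 3 of them are lowest at Tibial-SNI in L4-DRG number 1.

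The miRs that share the miR-351 seed stood lower by the same measure. With rno-miR-351, miR-125a-5p had r = 0.054 and miR-125b-5p r = 0.028, at places 88 and 91 of 153, and with mmu-miR-351 they had r = −0.274 and 0.22. Against Sham, miR-125a-5p differed by −0.12 after Sural-SNI and −0.06 after Tibial-SNI, miR-125b-5p by 0.56 and 0.36, and neither was called.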

How the data were processed

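TaqMan rodent miR cards were run by the authors on the RNA of single DRG for 40 cycles. Both deposited tables were used. The first holds Ct values without normalization (154 miRs, 4 wells of MammU6, snoRNA135 and U87), with no Ct missing. In the second, the authors deposited linear fold changes, the ratio of each SNI array to its Sham array. All 32 deposited fold changes of the members were within 0.01 log2 of the recomputed values. Ct carries no count of molecules, so precision rests on the number of arrays.

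Python 3.11.15 was used to compute −ΔCt against the mean Ct of the 3 references, with the MammU6 wells averaged first. Comparisons were fitted in R 4.3.3 with the lmFit and eBayes functions of limma 3.58.1 (two-sided), with Benjamini-Hochberg adjustment over 154 miRs and a threshold of 0.05. Injury against Sham was fitted over 12 arrays with DRG level as covariate, the DRG levels by cell means, and Tibial-SNI against Sural-SNI over 8 log2(fold change) values, unpaired. The fits were tested on simulated data. In 20 draws, 30 of the 154 miRs were given a log2 change of 3 in Tibial-SNI. The main fits called 75.5% of these for Tibial-SNI against Sham, 47.5% in L4-DRG and 88% between the SNI groups. With level and number as a block, 94.7%, 84.7% and 93.5% were called. False calls were then 1.25 to 1.6 a draw, against 0.05 to 0.4 without the block. Smaller changes were not simulated.

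Replicate numbers come from the labels. Arrays of the same level and number deviated together from their group means (r of 0.642 to 0.775 over 12 pairs). Each number had a single array in a group of a level, so deviations of the numbers mirror each other. Pairs of the same level and different number had r of −0.775 to −0.642, and the 12 pairs are not independent. Arrays of different levels were not compared, so pairing within a level was not tested apart from a general offset between the numbers. The numbers were taken as pairs, and the fit with level and number as a replicate block was an alternative. It gave −2.75 for mmu-miR-542-5p, Tibial-SNI minus Sural-SNI, L4 minus L3, as did the main fit, with an SE of 0.74. Other references, a Ct limit of 35, other fits and leaving out each array were also tried. Named miRs were all members, the references, miRs of the same seed, neighbouring miRs, the cell type markers listed, and the 3 miRs with the highest r to each member. miR-1 was also named as the other miR with assays of both species, and miR-325 and miR-200c were named after their values were seen. The members, the lists and the tests were chosen with earlier results of these data known. Sequences and coordinates are those of RefSeq (GRCr8).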

Additional observations from a re-analysis of the deposited data

Results flagged for a closer look

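Both results that stood apart were of mmu-miR-542-5p. Its log2(fold change) in Sural-SNI L4-DRG number 2 was 1.08, far from the other 3 Sural-SNI arrays, which lay between −0.61 and −0.41. This was 1 of 20 groups of 4 arrays looked at, and chance alone sets apart about 1 in 20. The difference Tibial-SNI minus Sural-SNI turned between the DRG levels, by −2.75 (L4 minus L3). It was flagged because the injury groups did not overlap at either level, so that lack of overlap is no further support. Its adjusted p in limma was 0.996, and over the alternatives of this comparison the adjusted p of a member lay between 0.432 and 0.999.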

How the results depend on the processing

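No member reached an adjusted p under 0.05 in any of the 554 alternative fits of the 28 member comparisons, where the lowest was 0.407. The sign held throughout in 14 of the 28. With other references, miR-542-5p in Tibial-SNI against Sham was 0.007 (U87). Tibial-SNI against Sural-SNI was −0.12 (MammU6) and −0.047 (mean of all miRs) for miR-542-5p, and −0.11 and −0.033 for rno-miR-351. L4 against L3 of rno-miR-351 was 0.0023 (MammU6). L4 minus L3 of rno-miR-351 in Tibial-SNI was 0.24 (snoRNA135), 0.0045 (U87), 0.12 (both) and 0.42 (mean of all miRs), and that of rno-miR-450a in Sural-SNI 0.047 (snoRNA135) and 0.28 (mean of all miRs). rno-miR-450a in Tibial-SNI against Sham was −0.037 (mean of all miRs). The cause was not tested.

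Leaving out 1 array at a time (a Sham array together with the SNI arrays set against it, between the SNI groups) turned the sign of small values, in unpaired fits where the offset between the numbers is then unbalanced. Tibial-SNI against Sural-SNI ranged from −0.14 to 0.35 for rno-miR-351, −0.58 to 0.32 for mmu-miR-351, −0.46 to 0.17 for rno-miR-450a and −0.53 to 0.71 for miR-542-5p. Against Sham, Tibial-SNI ranged from −0.056 to 0.64 for mmu-miR-351, −0.12 to 0.66 for rno-miR-450a and −0.49 to 0.48 for miR-542-5p. Sural-SNI ranged from −0.049 to 0.72 for rno-miR-450a and −0.50 to 0.11 for miR-542-5p. L4 against L3 ranged from −0.43 to 0.038 for rno-miR-351 and −0.036 to 0.59 for miR-542-5p. L4 minus L3 in Sural-SNI ranged from −0.16 to 1.03 for mmu-miR-351 and −1.09 to 0.96 for rno-miR-450a, and in Tibial-SNI from −0.76 to 0.71 for rno-miR-351. No sign turned, but values moved by over 1.5 times, for Tibial-SNI against Sural-SNI, L4 minus L3, with −1.56 to −0.09 for rno-miR-351, −2.02 to −0.73 for mmu-miR-351 and −2.18 to −0.13 for rno-miR-450a (miR-542-5p moved less, −3.49 to −2.01). The same held for Sural-SNI against Sham, with 0.11 to 0.75 for rno-miR-351 and 0.23 to 0.77 for mmu-miR-351, and for L4 minus L3 in Tibial-SNI, with −1.58 to −0.29 for mmu-miR-351, −2.06 to −0.39 for rno-miR-450a and −2.58 to −1.10 for miR-542-5p.

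The rat minus mouse miR-351 Ct was 0.35 within number 2, opposite to the mean of all arrays. The median r of the 6 pairs of members was 0.333 with no mean removed. The replicate block left every member uncalled and all values as they were (mmu-miR-351 in Sural-SNI against Sham 0.51). It moved the number of miRs with unadjusted p under 0.05 in limma from 0 to 10 for Sural-SNI and from 1 to 15 for Tibial-SNI against Sham, from 4 to 6 between the SNI groups, and from 3 to 11 between DRG levels. In L3-DRG that number moved from 0 to 17 for Sural-SNI and from 3 to 29 for Tibial-SNI against Sham, with no member among them. In L4-DRG it moved from 0 to 7 for Sural-SNI, 1 of the 7 being a member. For L4 minus L3 in Tibial-SNI it moved from 2 to 17, 1 of the 17 being a member. miR-325, the 1 miR called between the SNI groups, was not called with the block (0 called, lowest adjusted p 0.0707). With 2 arrays a level, only large differences could pass, and signals near Ct 35 are the least precise.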
